A study of Mus musculus with 12 samples.

Results

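The smooth muscle and pericyte genes Smtn, Notch3, Acta2, Tagln, Myh11, Cnn1, Pdgfrb, Rgs5, Cspg4 and Mcam were followed across the left ventricles of 12 mice. They were taken as every probe set whose platform gene symbol is 1 of these 10, which gave 19 probe sets of the 45101 on the array. A probe set is a group of short oligonucleotides that reads 1 transcript or a few. The mice were male C57BL/6 animals, either transgenic for ATF6-MER (TG) or their non-transgenic littermates (NTG), and each kind received tamoxifen or vehicle, with 3 mice in each of the 4 groups. ATF6-MER is a fusion of ATF6, which turns on genes when unfolded protein gathers in the endoplasmic reticulum, with a mutant oestrogen receptor that tamoxifen activates. The transgene was carried by both TG groups, also by the one given vehicle. The promoter that drives it, and the dose and length of the tamoxifen treatment, are not stated in the labels. Ages were given as about 30 weeks, except 40 weeks for TG tamoxifen 1. Each heart was hybridised to its own array.

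Vascular smooth muscle cells and pericytes are the mural cells of blood vessels: the former wrap arteries and contract, and the latter sit on capillaries. Their contractile genes, among them Acta2, Tagln, Myh11, Cnn1 and Smtn, are driven by serum response factor and its partner myocardin. Endothelial cells recruit mural cells through platelet-derived growth factor B, which Pdgfrb receives, and keep them mature through Notch ligands, which Notch3 receives. In a left ventricle these cells are a minority among cardiomyocytes, endothelial cells and fibroblasts, and some of the genes are also used by other cells.

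Several arrays carried doubts. For TG vehicle 3 the title and the treatment field disagree, the field naming tamoxifen, and the title was followed. Esr1, the gene of the oestrogen receptor, read 16.66 to 18.25 on the log2 scale on the 6 TG arrays and at most 10.88 on 5 NTG arrays, but 17.72 on NTG tamoxifen 1, so the library labelled NTG tamoxifen 1 goes against its label in this respect. Hspa5, a target of ATF6, read 18.05 there, where NTG tamoxifen 2 and 3 had 15.65 and 15.49 and the TG tamoxifen arrays 18.37 to 18.47. On TG vehicle 3 Hspa5 read 15.94, beside 16.39 and 15.76 on TG vehicle 1 and 2. In this respect TG vehicle 3 goes with its title. The ratio of the 3′ to the 5′ beta-actin control, a sign of RNA quality, was 1.32 to 1.68 in TG vehicle, 1.75 to 1.88 in TG tamoxifen, 1.78 to 1.97 in NTG tamoxifen and 2.12 to 2.43 in NTG vehicle. It therefore separated TG vehicle from NTG vehicle, and each tamoxifen group from its vehicle group, without overlap (exact two-sided permutation test, p = 0.1 each, the smallest that 3 against 3 arrays can give). TG tamoxifen and NTG tamoxifen overlapped in it (same exact test, p = 0.3). Array medians ran from 648 to 834 intensity units, and precision is limited by the number of arrays, 3 per group.

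Promoter windows of 7 of the 10 genes were matched in RefSeq (build GRCm38.p6), each reaching from 250 bases before to 50 bases after the gene's start: Acta2, Cnn1, Smtn, Notch3, Rgs5, Cspg4 and Mcam. That of Notch3 is shown because both of its probe sets fell in TG under both treatments, that of Smtn because it passed in both genotype comparisons and within TG, and that of Mcam because its response to tamoxifen differed between the genotypes and its window holds a full cyclic AMP response element, TGACGTCA. Capitals mark TGACGT, the core that ATF6 and related factors can bind, in Notch3 (on the minus strand relative to the gene, so it reads ACGTCA). They mark CCAAT, read on either strand, in Smtn, and TGACGTCA in Mcam.
Notch3, chr17:32166841-32167140, minus strand: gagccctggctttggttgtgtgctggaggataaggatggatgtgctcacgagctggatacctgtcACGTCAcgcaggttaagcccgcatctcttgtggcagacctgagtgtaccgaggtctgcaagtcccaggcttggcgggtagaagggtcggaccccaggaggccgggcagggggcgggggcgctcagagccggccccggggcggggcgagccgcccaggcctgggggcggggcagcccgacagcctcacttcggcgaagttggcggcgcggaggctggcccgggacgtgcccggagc
Smtn, chr11:3539243-3539542, minus strand: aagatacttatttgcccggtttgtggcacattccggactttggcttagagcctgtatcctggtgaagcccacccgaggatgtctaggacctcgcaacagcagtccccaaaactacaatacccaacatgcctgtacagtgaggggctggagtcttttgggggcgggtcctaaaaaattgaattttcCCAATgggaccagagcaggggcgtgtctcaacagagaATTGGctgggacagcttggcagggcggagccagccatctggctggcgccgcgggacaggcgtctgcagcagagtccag
Mcam, chr9:44134408-44134707, plus strand: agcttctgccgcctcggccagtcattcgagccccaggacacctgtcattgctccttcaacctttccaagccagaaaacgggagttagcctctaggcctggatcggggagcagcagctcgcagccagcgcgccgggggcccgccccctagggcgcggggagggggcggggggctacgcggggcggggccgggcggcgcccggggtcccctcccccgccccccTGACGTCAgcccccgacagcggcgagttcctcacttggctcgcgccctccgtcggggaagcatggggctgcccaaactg

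Searched on both strands, TGACGT was held by the windows of Notch3 and Mcam and by 7.51% of all 32851 promoter windows in the table. TGACGTCA, which contains that core, was held by the window of Mcam and by 1.79% of all windows. CCAAT was held by the windows of Smtn, Cnn1 and Rgs5 and by 37.4% of all. The ATF6 motif TGACGTGG (0.676% of all windows), the endoplasmic reticulum stress element, CCAAT followed at a fixed distance by CCACG (0.119%), the RBPJ motif GTGGGAA of Notch signalling (6.38%) and the CArG box of serum response factor (1.63%) matched none of the 7 windows. The CArG box was searched only as the exact string CCWWWWWWGG, W being A or T, so boxes that depart from it would be missed. All of these searches match letters in a short window and carry no measurement of binding.

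Levels below are log2(intensity + 16) after quantile normalization, and differences are log2 differences from limma, with standard errors (SE) and p-values adjusted by the Benjamini-Hochberg method over all 22518 probe sets tested. A difference passed at an adjusted p under 0.05. Probe sets were tested where their mean over all arrays reached the median of all probe sets. Of the 19 probe sets, 15 passed this filter and 4 did not. The 4 were both dim probe sets of Acta2, 1444105_at and 1456658_at, the dim Myh11 probe set 1418122_at and the probe set of Cnn1, 1417917_at, so Cnn1, an actin-binding protein of contractile smooth muscle, was not tested. Its levels ran from 7.75 to 9.15 on the NTG arrays and from 7.92 to 9.23 on the TG arrays.

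In TG hearts against NTG hearts, 5 of the 9 genes tested had a probe set that fell under vehicle and 6 under tamoxifen. That rule favours genes with several probe sets, and its share over all genes was not counted. Refitted with 1 probe set per gene, 4 of the 9 fell under vehicle, as did 250 of all 11165 genes. In the same refit 5 of the 9 fell under tamoxifen, as did 2295 of all. These comparisons share no array, but their p-values use the same estimate of the spread for each probe set, from all arrays. Under vehicle, 6 of the 15 probe sets fell in TG and 1 rose, where 6.12% of all probe sets passed in either direction, 2.92% falling and 3.2% rising. The 6 belonged to Notch3 (both probe sets), Pdgfrb, Cspg4, Smtn and Myh11, and the 1 that rose to Rgs5. Under tamoxifen, 8 of the 15 fell and 3 rose, where 37.5% of all probe sets passed, 19.1% falling and 18.4% rising. The 8 belonged to Notch3 and Pdgfrb (both probe sets of each), Cspg4, Smtn, Myh11 and Tagln, and the 3 to Rgs5, with 2 probe sets, and Mcam. The median difference over the 15 was -0.97 under vehicle and -1.12 under tamoxifen, where the medians over all probe sets were -0.01 and -0.05. The TG arrays lay entirely below the NTG arrays for 11 of the 15 under vehicle and for 9 under tamoxifen, as they did for 16.2% and 25.9% of all tested probe sets, and entirely above for 2 in each, as for 16.2% and 24.1% of all. In a whole ventricle, fewer cells of a type and less RNA per cell cannot be told apart. Nothing beyond separate hearts is said of how the mice were housed or handled, and the p-values measure the spread between these hearts.

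**Figure D1:**
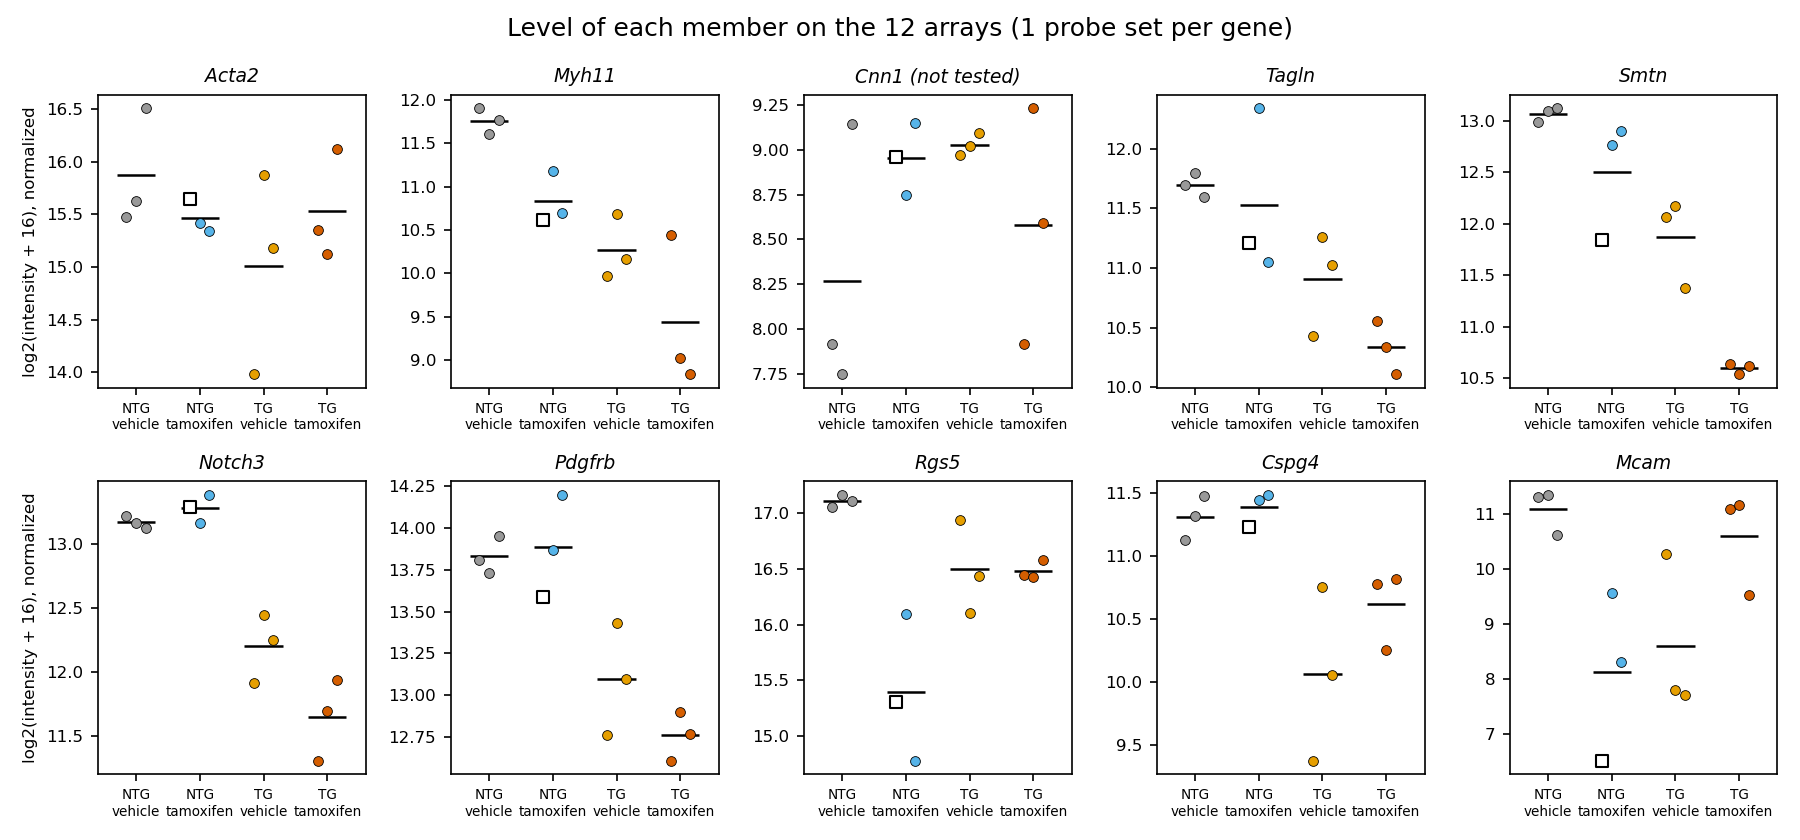
Level of each of the 10 genes on every array, as log2(intensity + 16) after normalization, by its brightest probe set (Cnn1 was not tested), with 1 panel per gene and its own vertical scale. Points are arrays, horizontal lines are the means of the 4 groups, and the open square is the library labelled NTG tamoxifen 1. Notch3, Pdgfrb and Cspg4 lie lower on all 6 TG arrays than on all 6 NTG arrays.

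The vehicle result was the less settled. The beta-actin ratio differed between those groups without overlap, and with it as a covariate limma called none of the 15 probe sets and none of the 22518, although 6 of the 15 and 2644 of all had an unadjusted p under 0.05. The fitted differences were then -1.55 ± 0.50 (SE) for Notch3 1421965_s_at (limma adjusted p = 0.305) and -2.50 ± 0.70 for Cspg4 1450944_at (adjusted p = 0.273). Smtn, at -1.46 ± 0.75 (adjusted p = 0.484), and Pdgfrb 1417148_at, at -2.25 ± 0.89 (adjusted p = 0.377), were smaller against their errors. Leaving out 1 array also mattered: the count of 7 became 0 without NTG vehicle 2 (10 at an unadjusted p under 0.05), 1 without NTG vehicle 1, NTG vehicle 3 or TG vehicle 3, 3 without TG tamoxifen 2 and 4 without TG vehicle 1 or TG tamoxifen 1. In the tamoxifen comparison, where the ratio overlapped, the covariate left 12 of 15 past the threshold, and leaving out any 1 array left 8 to 12. Leaving out TG vehicle 3, TG tamoxifen 1 and NTG tamoxifen 1 together, an alternative chosen after seeing the data, left 0 of 15 under vehicle, with 9 at an unadjusted p under 0.05, and 9 under tamoxifen.

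Notch3, Pdgfrb and Cspg4, receptors and surface proteins of mural cells, separated the labelled genotypes on all arrays, and were picked after their values were seen. Each of their 6 probe sets read lower on every TG array than on every NTG array, which 4.85% of all tested probe sets did. That includes the library labelled NTG tamoxifen 1, which lay on the NTG side in all 6, although its Esr1 and Hspa5 levels go against its label. The split therefore holds for the genotypes as labelled. By Esr1 level, where NTG tamoxifen 1 (17.72) read like the TG arrays, it does not hold. Grouping that array as TG was not tested. Other members went otherwise: Mcam, also a surface protein of mural cells, overlapped (7.71 to 11.17 on the TG arrays, 6.51 to 11.36 on the NTG arrays). Rgs5 1420942_s_at read higher on every TG array.

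Notch3, a Notch receptor made mainly by mural cells, read 11.31, 11.70 and 11.94 in TG tamoxifen, 11.92, 12.45 and 12.25 in TG vehicle, 13.29, 13.17 and 13.39 in NTG tamoxifen and 13.22, 13.17 and 13.13 in NTG vehicle by its brighter probe set, 1421965_s_at. The NTG arrays lay close together and the TG arrays spread more widely below them. The difference between genotypes was -1.64 ± 0.20 (SE, n = 3 per group, 3.11-fold lower in TG) under tamoxifen, with limma adjusted p = 0.00036, and -0.97 ± 0.20 (1.96-fold lower) under vehicle, with adjusted p = 0.0229. In the order of the group means, NTG tamoxifen (13.28) and NTG vehicle (13.17) differed by less than their error, and TG vehicle (12.21) and TG tamoxifen (11.65) differed by -0.56 ± 0.20, which missed the threshold (adjusted p = 0.0748). The dimmer probe set, 1421964_at, read 7.00 to 9.96 on the TG arrays and 11.00 to 11.96 on the NTG arrays. Its differences were -2.67 ± 0.51 under tamoxifen (adjusted p = 0.00228) and -2.05 ± 0.51 under vehicle (adjusted p = 0.0393). The mean of 1421964_at in TG tamoxifen (8.53) lay below the filter level of 9.423, so it was tested through the groups where it was higher. The suffix _s_at marks a probe set that the platform lists as possibly matching more than 1 transcript, and both gave the same direction.

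Pdgfrb, the receptor through which mural cells respond to platelet-derived growth factor B, read 12.61, 12.90 and 12.77 in TG tamoxifen, 12.76, 13.43 and 13.10 in TG vehicle, 13.59, 13.87 and 14.20 in NTG tamoxifen and 13.81, 13.73 and 13.95 in NTG vehicle by probe set 1436970_a_at. The genotypes did not overlap and the treatments did. The differences between genotypes were -1.12 ± 0.22 under tamoxifen (adjusted p = 0.00233) and -0.73 ± 0.22 under vehicle, which missed the threshold (adjusted p = 0.066). The dimmer 1417148_at passed in both, at -1.48 ± 0.33 (adjusted p = 0.00537) and -1.90 ± 0.33 (adjusted p = 0.0138). Fibroblasts also make Pdgfrb.

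Cspg4, the NG2 proteoglycan on the surface of pericytes, read 10.78, 10.26 and 10.82 in TG tamoxifen, 9.38, 10.76 and 10.06 in TG vehicle, 11.23, 11.45 and 11.49 in NTG tamoxifen and 11.13, 11.32 and 11.48 in NTG vehicle by probe set 1450944_at. The NTG arrays again lay close together above all TG arrays. This probe set passed under vehicle, at -1.24 ± 0.30 (adjusted p = 0.0365), and not under tamoxifen, at -0.77 ± 0.30 (adjusted p = 0.0644). For 1423341_at, which read 6.58 to 9.99 on the TG arrays and 10.81 to 11.52 on the NTG arrays, it was the reverse: -2.18 ± 0.75 under vehicle (adjusted p = 0.101) and -2.35 ± 0.75 under tamoxifen (adjusted p = 0.0285). The latter call was lost without TG tamoxifen 3, whose 6.58 was the lowest value (-1.25 ± 0.45, adjusted p = 0.0574), and without NTG tamoxifen 2 or NTG tamoxifen 3 (adjusted p = 0.0766 and 0.0724). With no filter on dim probe sets it was lost too (adjusted p = 0.0829). The means of 1423341_at in TG tamoxifen (8.77) and TG vehicle (9.08) lay below the filter level of 9.423. The difference between the vehicle and tamoxifen comparisons did not pass for either probe set (adjusted p = 0.485 and 0.933).

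Among the contractile genes, Smtn, Myh11 and Tagln fell in TG hearts under tamoxifen, the first 2 of them also under vehicle, while Acta2 did not pass in either comparison. Smtn encodes smoothelin, an actin-binding protein of contractile smooth muscle that also has a form in striated muscle. It read 10.64, 10.54 and 10.62 in TG tamoxifen, 12.07, 12.17 and 11.38 in TG vehicle, 11.84, 12.76 and 12.90 in NTG tamoxifen and 12.99, 13.09 and 13.12 in NTG vehicle. The TG tamoxifen arrays were the lowest and nearly equal, and the library labelled NTG tamoxifen 1 fell within the range of TG vehicle. Smtn was 3.72-fold lower in TG under tamoxifen (-1.90 ± 0.28, adjusted p = 0.000681) and 2.29-fold lower under vehicle (-1.20 ± 0.28, adjusted p = 0.0339).

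Myh11, the smooth muscle myosin heavy chain, read 10.44, 9.03 and 8.84 in TG tamoxifen, 9.97, 10.68 and 10.17 in TG vehicle, 10.62, 11.18 and 10.70 in NTG tamoxifen and 11.90, 11.61 and 11.76 in NTG vehicle by 1448962_at. NTG vehicle stood above every other array. The differences between genotypes were -1.40 ± 0.37 under tamoxifen (adjusted p = 0.0118) and -1.48 ± 0.37 under vehicle (adjusted p = 0.0394), and the former missed the threshold without TG tamoxifen 3 (-1.10 ± 0.38, adjusted p = 0.0501). Tagln, the actin-binding protein transgelin, read 10.56, 10.34 and 10.11 in TG tamoxifen, 10.43, 11.26 and 11.03 in TG vehicle, 11.21, 12.34 and 11.05 in NTG tamoxifen and 11.70, 11.80 and 11.60 in NTG vehicle. No TG array reached the NTG arrays of the same treatment. Tagln differed by -1.20 ± 0.32 under tamoxifen (adjusted p = 0.0131) and by -0.79 ± 0.32 under vehicle, which missed the threshold (adjusted p = 0.153).

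Acta2, smooth muscle actin, overlapped between the genotypes under both treatments. It read 15.35, 15.12 and 16.12 in TG tamoxifen, 13.98, 15.88 and 15.18 in TG vehicle, 15.65, 15.42 and 15.34 in NTG tamoxifen and 15.48, 15.63 and 16.51 in NTG vehicle by 1416454_s_at. Its differences between genotypes were 0.06 ± 0.44 under tamoxifen (adjusted p = 0.934, 95% interval -0.91 to 1.02) and -0.86 ± 0.44 under vehicle (adjusted p = 0.252, interval -1.83 to 0.11). Both intervals hold no change, and the one under vehicle also holds the -0.79 of Tagln under vehicle. The interval under tamoxifen does not reach the -1.20 of Tagln under tamoxifen, whose own 95% interval was -1.90 to -0.49. The probe set may match more than 1 transcript.

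**Figure D2:**
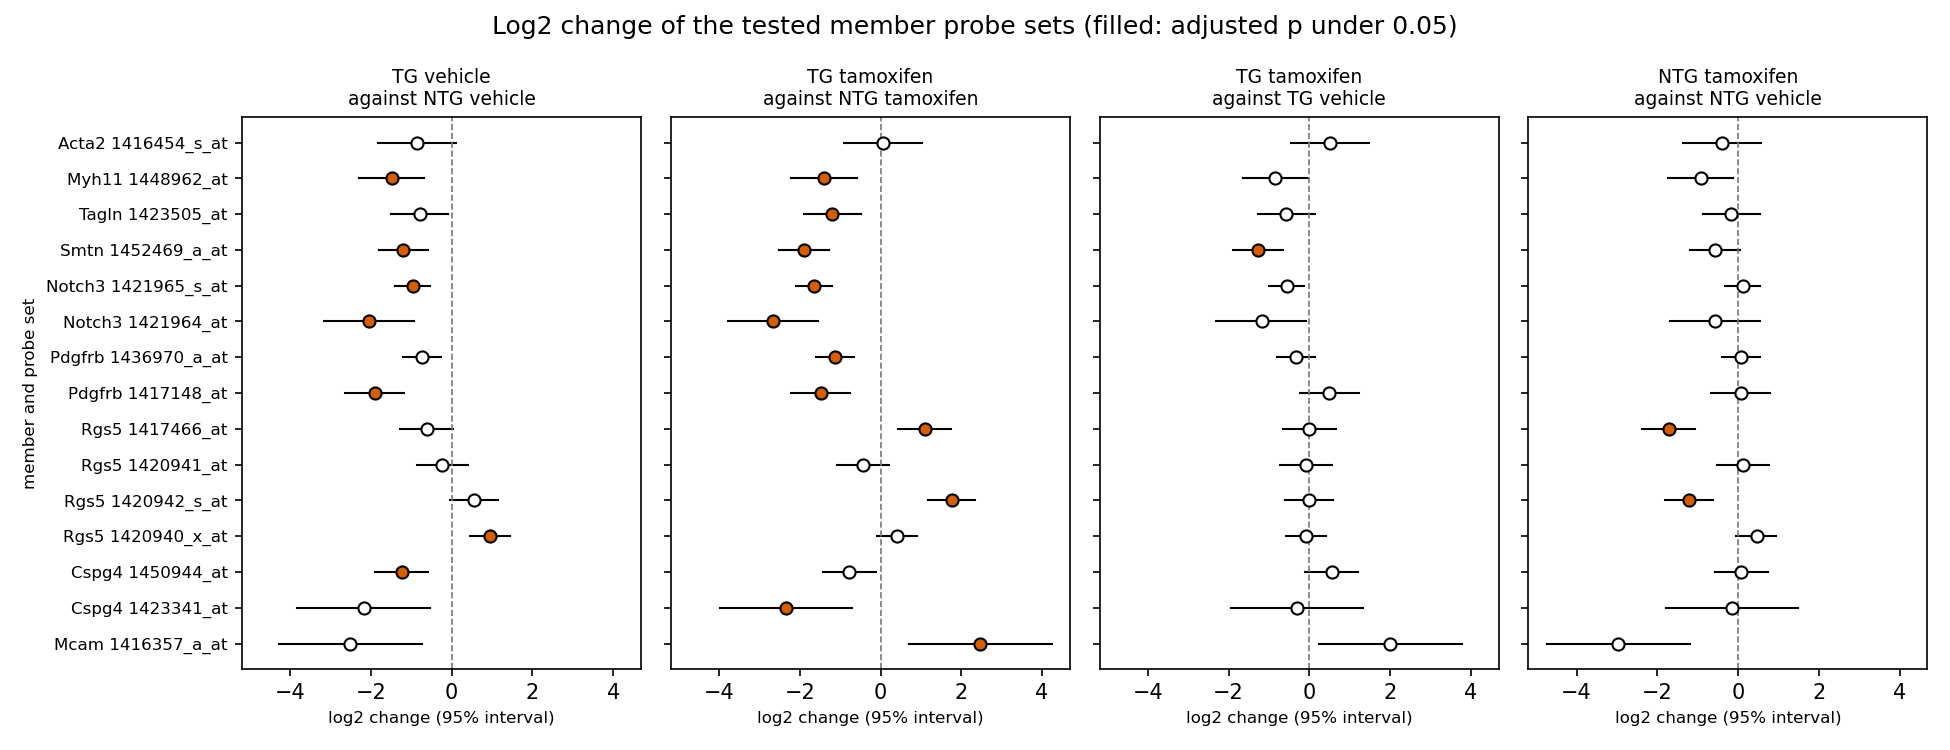
Log2 difference between groups for each tested probe set, with 95% intervals, in the 4 comparisons between groups. Filled circles passed at a limma adjusted p under 0.05 and open circles did not. In TG against NTG the points of Notch3, Pdgfrb, Cspg4, Smtn, Myh11 and Tagln lie below 0 under both treatments, and within TG the point of Smtn is the one filled circle.

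Rgs5, a regulator of G protein signalling that is abundant in pericytes, gave no single answer. The brightest probe set, 1417466_at, read 16.45, 16.43 and 16.58 in TG tamoxifen, 16.94, 16.11 and 16.44 in TG vehicle, 15.31, 16.10 and 14.78 in NTG tamoxifen and 17.06, 17.17 and 17.11 in NTG vehicle. NTG tamoxifen was the lowest group and NTG vehicle the highest, with the TG arrays between them. Probe set 1420942_s_at read 14.97, 14.86 and 15.21 in TG tamoxifen, 15.42, 14.75 and 14.89 in TG vehicle, 12.88, 13.79 and 13.11 in NTG tamoxifen and 14.64, 14.14 and 14.60 in NTG vehicle. It was higher on every TG array than on every NTG array, as 3.54% of all tested probe sets were. Both rose in TG under tamoxifen, by 1.09 ± 0.30 (adjusted p = 0.0146) and 1.76 ± 0.27 (adjusted p = 0.00075). The former was lost without NTG tamoxifen 3 (0.78 ± 0.28, adjusted p = 0.0588).

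The other pair of Rgs5 probe sets differed from these. Probe set 1420941_at read 15.02 to 15.72 on the TG arrays and 15.04 to 16.13 on the NTG arrays, and passed in none of the comparisons (adjusted p = 0.271 under tamoxifen and 0.669 under vehicle). Probe set 1420940_x_at rose in TG under vehicle, by 0.96 ± 0.23 (adjusted p = 0.0341), and differed by 0.42 ± 0.23 under tamoxifen (adjusted p = 0.166). Under vehicle the brightest probe set gave -0.62 ± 0.30 (adjusted p = 0.227). Across the 12 arrays, which share the group structure, Pearson's r was 0.73 between 1417466_at and 1420942_s_at, 0.53 between 1420942_s_at and 1420940_x_at, and from -0.19 to 0.09 for the other 4 pairs. It was 0.78 for the pair of Notch3, 0.77 for Pdgfrb and 0.56 for Cspg4. The platform lists 1420942_s_at and 1420940_x_at as possibly matching other transcripts too, and what part that has in the disagreement was not tested.

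**Figure D3:**
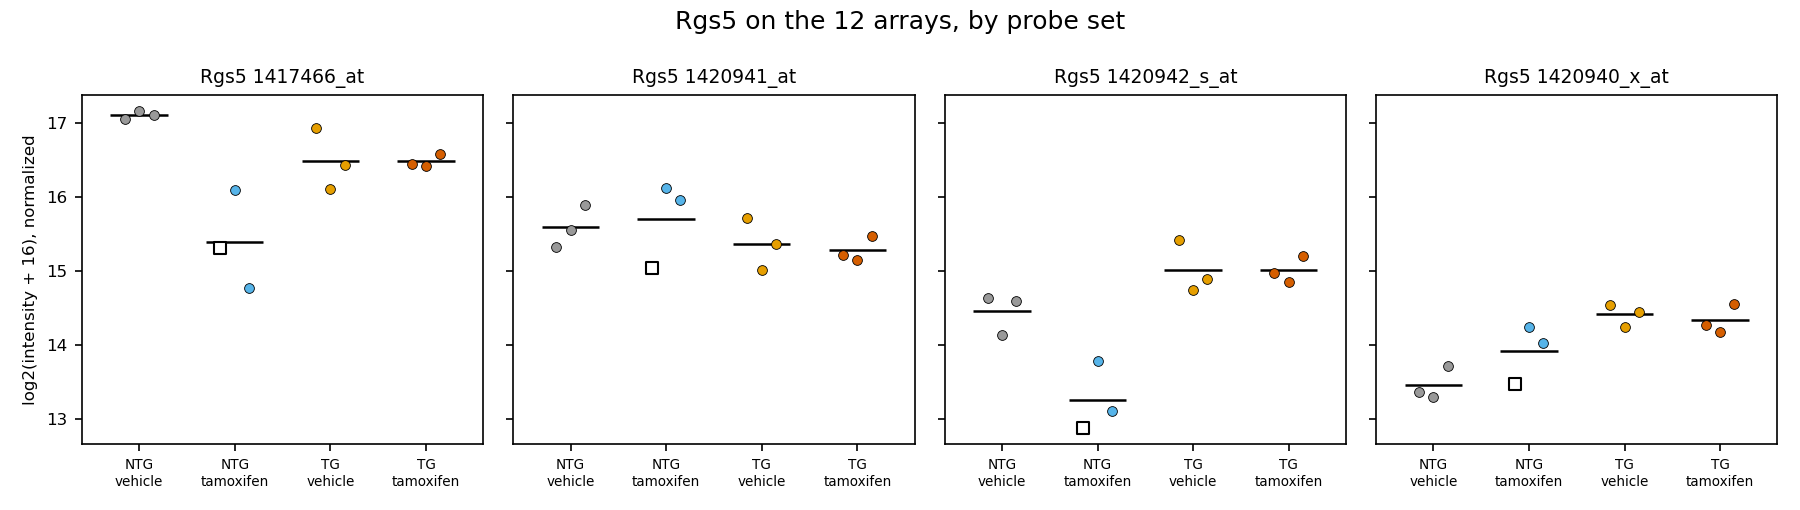
Level of the 4 Rgs5 probe sets on every array, as log2(intensity + 16), with 1 panel per probe set. Points are arrays, lines are group means and the open square is the library labelled NTG tamoxifen 1. The NTG tamoxifen arrays are lowest for 1417466_at and 1420942_s_at, and not for 1420941_at.

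Mcam, a cell adhesion molecule of endothelial and mural cells, varied widely between arrays of a group. It read 11.10, 11.17 and 9.53 in TG tamoxifen, 10.27, 7.79 and 7.71 in TG vehicle, 6.51, 9.57 and 8.30 in NTG tamoxifen and 11.32, 11.36 and 10.62 in NTG vehicle. NTG vehicle and 2 arrays of TG tamoxifen were high, and the other groups were scattered below, 1 NTG tamoxifen array overlapping TG tamoxifen. Mcam rose in TG under tamoxifen, by 2.47 ± 0.81 (adjusted p = 0.0315), and differed by -2.51 ± 0.81 under vehicle (adjusted p = 0.085). The call under tamoxifen was lost without the library labelled NTG tamoxifen 1, whose 6.51 was the lowest value (1.66 ± 0.77, adjusted p = 0.11). It was also lost without TG tamoxifen 1 (2.22, adjusted p = 0.0959), TG tamoxifen 2 (2.19, adjusted p = 0.0969) or NTG tamoxifen 3 (2.56, adjusted p = 0.0673). With no filter on dim probe sets it was lost too (2.47, adjusted p = 0.0894). The mean of Mcam over all arrays, 9.60, lay just above the filter level of 9.423. Its means in TG vehicle (8.59) and NTG tamoxifen (8.13) lay below that level, so it was tested through the groups where it was high.

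Within TG hearts, tamoxifen changed 1 of the 15 probe sets, that of Smtn, where 18.3% of all tested probe sets passed and 9.81% fell. Smtn fell by 1.27 on the log2 scale, with an SE of 0.28 (2.41-fold lower, adjusted p = 0.0119), and its 3 TG tamoxifen arrays lay below its 3 TG vehicle arrays, as those of 20.8% of all tested probe sets did. The call was lost when TG vehicle 3 was grouped by its treatment field (-1.33, adjusted p = 0.183), with no filter on dim probe sets (-1.27, adjusted p = 0.0573) and with the beta-actin ratio as a covariate (-1.15, adjusted p = 0.187). Differences that missed the threshold were -0.84 ± 0.37 for Myh11 (adjusted p = 0.133), -0.57 ± 0.32 for Tagln (adjusted p = 0.233), 0.52 ± 0.44 for Acta2 (adjusted p = 0.444) and 2.01 ± 0.81 for Mcam (adjusted p = 0.104). Pdgfrb, Cspg4 and the 4 Rgs5 probe sets had adjusted p-values from 0.218 to 0.995. The count rose to 3 without TG tamoxifen 1, when Myh11 (-1.34, adjusted p = 0.0194) and the dimmer Notch3 probe set (-1.77, adjusted p = 0.0377) passed too, and to 3 without TG vehicle 1, with Notch3 (-0.70, adjusted p = 0.0407) and Mcam (2.85, adjusted p = 0.0272).

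Within NTG hearts, tamoxifen lowered 2 of the 15 probe sets, both of Rgs5, where 3.89% of all passed and 3.2% fell. These were 1417466_at, at -1.72 ± 0.30 (3.29-fold lower, adjusted p = 0.0223), and 1420942_s_at, at -1.21 ± 0.27 (2.31-fold lower, adjusted p = 0.0361). For 1420941_at and 1420940_x_at the differences were 0.12 ± 0.29 and 0.46 ± 0.23 (adjusted p = 0.846 and 0.251). Mcam differed by -2.97 ± 0.81 with no overlap of arrays, as 15.7% of all tested probe sets were lower without overlap, and missed the threshold (adjusted p = 0.0631), and Myh11 differed by -0.92 ± 0.37 (adjusted p = 0.165). Notch3, Pdgfrb and Cspg4 gave adjusted p-values from 0.539 to 0.928. The count became 0 without NTG tamoxifen 3 or without any 1 of the NTG vehicle arrays (3 or 4 at an unadjusted p under 0.05), and 1 without NTG tamoxifen 1 or any 1 of the TG tamoxifen arrays. It rose to 3, with Mcam, without TG vehicle 1 or NTG tamoxifen 2. The beta-actin ratio differed between these groups too, and with it as a covariate limma called 0 of 15, with 3 at an unadjusted p under 0.05.

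The effect of tamoxifen differed between TG and NTG for 2 of the 15 probe sets, where 10.6% of all passed and 6.12% passed with the TG effect the higher. For Rgs5 1417466_at the effect was higher in TG by 1.71 ± 0.43 (adjusted p = 0.0299), from -0.01 ± 0.30 in TG and -1.72 ± 0.30 in NTG. For Mcam it was higher in TG by 4.98 ± 1.14 (adjusted p = 0.0238, 95% interval 2.48 to 7.48), from 2.01 ± 0.81 in TG and -2.97 ± 0.81 in NTG. Mcam reached the filter through its levels in NTG vehicle and TG tamoxifen. With no filter on dim probe sets neither passed (limma adjusted p = 0.0949 for Mcam and 0.117 for Rgs5 1417466_at). The 2 became 0 when TG tamoxifen 1, TG tamoxifen 2, TG vehicle 2, TG vehicle 3 or NTG vehicle 2 was left out, with 3 to 5 of the 15 at an unadjusted p under 0.05. They became 1 when TG tamoxifen 3, NTG tamoxifen 3, NTG vehicle 1 or NTG vehicle 3 was left out, and 3 when TG vehicle 1, NTG tamoxifen 1 or NTG tamoxifen 2 was. For Notch3 the difference of the effects was -0.67 ± 0.28 (adjusted p = 0.142) and for Smtn -0.70 ± 0.40 (adjusted p = 0.264), both short of the threshold. Smtn passed without the library labelled NTG tamoxifen 1 (-1.03 ± 0.31, adjusted p = 0.0432) and without it, TG vehicle 3 and TG tamoxifen 1 together (-1.30 ± 0.25, adjusted p = 0.0217).

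Other genes of the same programs were counted by 1 probe set per gene, that of the highest mean. On that basis 2.6% of all 11165 genes fell and 1.85% rose in TG under vehicle, and 19.7% fell and 18.2% rose under tamoxifen. Of 25 other smooth muscle contractile genes tested, 1 fell under vehicle, Ppp1r12a, a subunit of myosin phosphatase (-1.35 ± 0.25, adjusted p = 0.0154). Under tamoxifen 8 fell and 5 rose. Synpo2 (-2.36 ± 0.38), the gamma smooth muscle actin Actg2 (-1.15 ± 0.29) and the angiotensin receptor Agtr1a (-1.16 ± 0.19) were among those that fell. The caldesmon gene Cald1 (0.69 ± 0.17) and Myl6 (1.38 ± 0.28) were among those that rose. Of 21 regulators of the program, 3 fell under vehicle (Klf2, Smad7 and Tead1, from -0.96 to -0.94), and 8 fell and 4 rose under tamoxifen. Myocd, the gene of myocardin, which cardiomyocytes also make, was 1 of the 8 (-2.05 ± 0.30, adjusted p = 0.000654), as was Gata6 (-1.46 ± 0.22). Among the 4 that rose were the transforming growth factor genes Tgfbr1 (1.21 ± 0.20) and Tgfb2 (0.58 ± 0.20). Cald1, Myl6, Myocd and the genes named for counts of 5 or fewer were picked after their values were seen.

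The partners of Notch3 and Pdgfrb were read the same way. Of 16 other Notch ligands, receptors and targets, Notch4, an endothelial receptor, fell under vehicle (-1.34 ± 0.23, adjusted p = 0.013). Under tamoxifen 4 fell and 2 rose: the Notch target Heyl (-1.07 ± 0.18), the endothelial ligand Dll4 (-0.91 ± 0.19), Notch1 (-0.84 ± 0.25) and Notch4 (-0.69 ± 0.23) fell, and the protease Adam10 (0.88 ± 0.15) and the target Hey2 (0.77 ± 0.27) rose. Of 14 platelet-derived growth factors, receptors and genes of pericyte recruitment, Pdgfb, the ligand of Pdgfrb, fell under vehicle (-1.29 ± 0.27, adjusted p = 0.0223) and under tamoxifen (-1.15 ± 0.27, adjusted p = 0.00603). Pdgfa also fell under vehicle (-0.90 ± 0.22), and Pdgfd, Pdgfc and Nrp1 rose under tamoxifen. Of 18 other pericyte genes none passed under vehicle by limma, with 7 at an unadjusted p under 0.05, and under tamoxifen 5 fell and 1 rose. The summed intensity of all 20 genes of this list was 301000 to 352000 in TG vehicle against 291000 to 304000 in NTG vehicle, and 209000 to 240000 in TG tamoxifen against 194000 to 253000 in NTG tamoxifen. These sums, in which the brightest genes weigh most, did not show lower levels in TG. The median difference over the 18 tested genes was 0.00 under vehicle and -0.29 under tamoxifen, where the medians over all genes were 0.01 and -0.06. Under tamoxifen Kcnj8, which with Abcc9 forms the potassium channel of pericytes, fell (-0.64 ± 0.17), while Abcc9 differed by -0.01 ± 0.19 (adjusted p = 0.982) and Art3 by -0.35 ± 0.24 (adjusted p = 0.26). Genes that also fell were the pericyte gene Ndufa4l2 (-1.78 ± 0.25) and Vtn, the gene of vitronectin (-1.35 ± 0.23). The last pair was picked after their values were seen.

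Within TG hearts tamoxifen lowered 5 of the 18 other pericyte genes, where 12.4% of all genes fell and 8.76% rose, with Art3 (-1.26 ± 0.24), Kcnj8 (-0.78 ± 0.17) and Abcc9 (-0.80 ± 0.19) at the smallest adjusted p-values (0.00612, 0.0108 and 0.0147). In NTG hearts tamoxifen lowered Abcc9 too (-1.11 ± 0.19, adjusted p = 0.0212), and the difference of its effects did not pass (0.31 ± 0.27, adjusted p = 0.468), nor did those of Art3 (adjusted p = 0.121) and Kcnj8 (adjusted p = 0.0947). Of the 25 contractile genes 4 fell, among them Actg2 (-1.31 ± 0.29), Synpo2 (-1.66 ± 0.38) and Agtr1a (-0.74 ± 0.19), and 2 rose. Of the 21 regulators 3 fell, Gata6 among them (-0.98 ± 0.22), and 3 rose, among them the transforming growth factor genes Tgfbr1 (1.12 ± 0.20) and Tgfb2 (1.05 ± 0.20). Of the 16 Notch genes 3 fell, among them Heyl (-1.01 ± 0.18) and Dll4 (-0.78 ± 0.19), and Adam10 rose (0.78 ± 0.15). Of the 14 platelet-derived growth factor genes Cdh2 fell (-0.65 ± 0.18), as it did with tamoxifen in NTG hearts (-0.74 ± 0.18, adjusted p = 0.0442), and Pdgfa rose (0.80 ± 0.22), while Pdgfc differed by 0.86 ± 0.32 (adjusted p = 0.0844). Across all 22518 probe sets the 4131 calls of this comparison became 2 when TG vehicle 3 was grouped by its treatment field and 0 with the beta-actin ratio as a covariate (4073 and 4433 at an unadjusted p under 0.05), so at most 2 of these list calls were kept there.

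Markers of other cell types were counted in the same comparisons. Of all genes 19.7% fell and 18.2% rose in TG under tamoxifen, and 2.6% fell and 1.85% rose under vehicle. Of 14 endothelial markers 7 fell and 1 rose in TG under tamoxifen, and the summed intensity of the list was 65000 to 70900 in TG tamoxifen against 86100 to 107000 in NTG tamoxifen. Under vehicle 1 fell, Tie1 (-1.13 ± 0.20), and 1 rose, Cldn5 (0.82 ± 0.19), with sums of 80600 to 113000 in TG and 104000 to 118000 in NTG. Of 13 fibroblast genes tested 5 rose and 1 fell under tamoxifen and 1 rose under vehicle. The sums over all 14 genes of the list, with Cthrc1 below the filter, were 241000 to 272000 in TG tamoxifen, 177000 to 225000 in NTG tamoxifen, 267000 to 315000 in TG vehicle and 228000 to 263000 in NTG vehicle. Of 10 macrophage and leukocyte genes 4 rose under tamoxifen (sums over 11 genes, with Itgam below the filter, of 68000 to 84700 against 50600 to 58500) and none passed under vehicle by limma, with 4 at an unadjusted p under 0.05 (sums 50300 to 92000 against 48100 to 57000). Of 12 cardiomyocyte genes 3 fell under tamoxifen and 1 under vehicle, with sums of 2720000 to 2800000 against 3160000 to 3400000 and of 3020000 to 3180000 against 3360000 to 3460000. What part these have in the values of the mural cell genes was not tested.

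Within TG hearts given tamoxifen, where 12.4% of all genes fell and 8.76% rose, 5 of 14 endothelial genes fell. Among them were Tie1 (-0.86 ± 0.20), Kdr (-0.79 ± 0.20) and Ramp2 (-0.95 ± 0.27). Of the cardiomyocyte genes 3 of 12 fell (Mybpc3, Tcap and Actn2). Rises were called for 2 of 13 fibroblast genes (Fn1 and Col3a1) and 3 of 10 leukocyte genes (Ptprc, Aif1 and Mrc1). These calls carry the same loss under those alternatives, with at most 2 calls left over all probe sets. Of the 4 atrial and conduction genes tested none passed in the comparisons between groups by limma, with 1 at an unadjusted p under 0.05 in TG against NTG under tamoxifen. Of the 2 Schwann cell and neuron genes tested, Npy rose in TG under vehicle (2.21 ± 0.47).

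**Figure D4:**
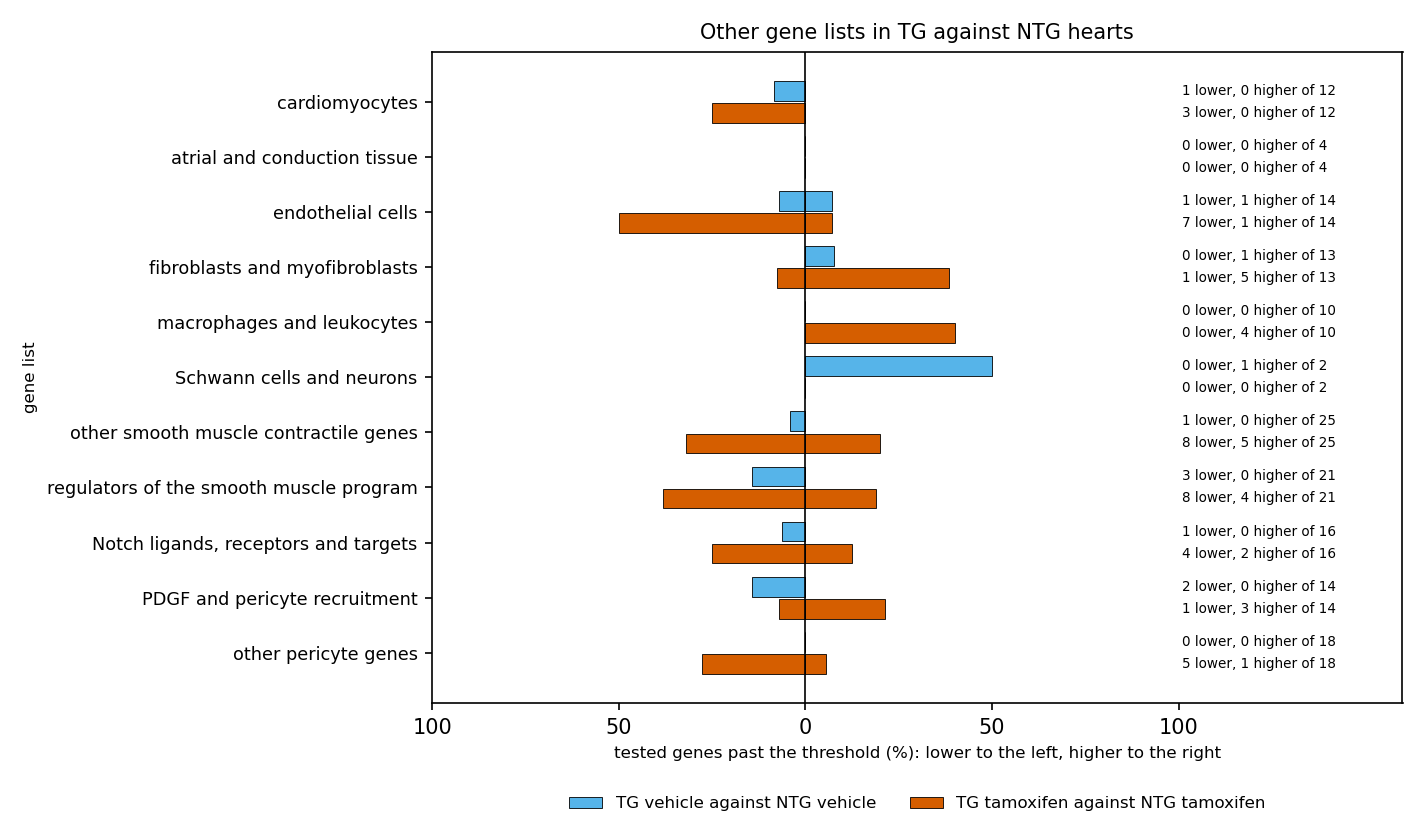
Share of the tested genes of each list, in percent, that fell (to the left) or rose (to the right) in TG against NTG hearts at a limma adjusted p under 0.05. Blue bars are the vehicle comparison and orange bars the tamoxifen comparison, with counts at the right. Of the endothelial genes 7 of 14 fell under tamoxifen, and of the other pericyte genes 5 of 18, where 19.7% of all genes fell.

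Genes with the most similar profile over the 12 arrays were found by Pearson's r, given as a description, since the arrays share the group structure. For the mean of Rgs5, Pdgfrb, Notch3 and Cspg4, the 5 genes with the highest r outside the members were Pbxip1 (0.958), Tns2 (0.955), Rgl2 (0.944), Dnajb5 (0.941) and Flot1 (0.939). Pdgfrb, Notch3 and Cspg4 correlated with this mean at 0.883, 0.882 and 0.805, and Rgs5 at 0.113. For the mean of Acta2, Tagln, Myh11 and Cnn1 they were Nrde2 (0.954), Prag1 (0.930), Eng (0.925), Cd99l2 (0.921) and Xdh (0.920). Tagln, Myh11 and Acta2 correlated with it at 0.887, 0.854 and 0.590, and Cnn1 at -0.016. Rgs5 and Cnn1 therefore did not follow the mean they were part of.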

How the data were processed

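The authors deposited 1 linear intensity per probe set for every array. Trimmed by 2% at both ends, these average 2500.02 on all arrays, a scaling to a common target. The summarisation software is not stated in the labels, and no detection calls were used. Intensities were taken as log2(value + 16). Array medians spanned 0.355 on the log2 scale, above the 0.2 allowed, and quantile normalization was applied. Fold changes on this scale understate changes of dim genes. Probe sets were named where the platform annotation gives 1 symbol (34945 of 45101), 64 controls were left out, and 22518 at or above the 50th percentile were tested. One model with 4 group means over all 12 arrays was fitted with limma 3.58.1 in R 4.3.3, on 8 residual and 3.61 prior degrees of freedom. The script was tested on simulated data. Values per gene are from the probe set of highest mean, and each further list is named by its 3 genes of smallest adjusted p in TG tamoxifen against TG vehicle. The genes and lists were chosen with earlier results of these data known. Alternatives were other scalings, offsets, filters, probe set rules, spread models, label groupings, a beta-actin covariate and each array left out. No pair of arrays held identical values. Deviations of arrays with the same number correlated from -0.10 to 0.12, so numbers were not taken as pairs.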

Additional observations from a re-analysis of the deposited data

Results flagged for a closer look

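The effect of tamoxifen differed between TG and NTG hearts for Mcam, by 4.98 on the log2 scale, and for Rgs5 1417466_at, by 1.71, each by the interaction term of the limma model (adjusted p = 0.0238 and 0.0299). The Mcam arrays ranged from 6.51 to 9.57 within NTG tamoxifen and from 7.71 to 10.27 within TG vehicle. The means of both groups (8.13 and 8.59) lay below the filter level of 9.423. Mcam was thus tested through NTG vehicle and TG tamoxifen, whose high levels also raise this difference. With no filter on dim probe sets neither Mcam nor Rgs5 1417466_at passed (limma adjusted p = 0.0949 and 0.117). Over the alternatives the Mcam value ran from 2.94 to 5.82 and that of Rgs5 1417466_at from 0.27 to 2.06, both lowest with the beta-actin ratio as a covariate. The cause was not tested.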

How the results depend on the processing

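Counts of the 15 probe sets past the threshold are given in the order tamoxifen within TG, tamoxifen within NTG, TG against NTG under vehicle, TG against NTG under tamoxifen, and the difference between the tamoxifen effects. They were 1, 2, 7, 11 and 2. With no filter on dim probe sets they were 0, 0, 0, 8 and 0 of 19 (3, 4, 11, 12 and 3 at an unadjusted p under 0.05). With the filter at the 75th percentile, which leaves 8 of these probe sets, the first, the third and the fourth were 2, 4 and 5. With 1 probe set per gene the second to the fourth were 1, 4 and 7 of 9 genes, and with the mean of a gene's probe sets the counts were 2, 0, 2, 7 and 1 of 8. Fitting the compared groups alone gave 0 and 2 in the second and the third, and array weights gave 3 in the first. With TG vehicle 3 grouped as TG tamoxifen the counts were 0, 1, 0, 11 and 0, without TG vehicle 3 and TG tamoxifen 1 (the array of another labelled age) 2, 0, 0, 9 and 0, and without TG vehicle 3, TG tamoxifen 1 and NTG tamoxifen 1 together, chosen after seeing the data, 2, 0, 0, 9 and 1. With the beta-actin ratio as a covariate they were 0, 0, 0, 12 and 0 (2, 3, 6, 12 and 1 at an unadjusted p under 0.05). With the replicate number as a block, which the check of the numbers did not call for, the second and the third were 1 and 3. Leaving out 1 array at a time gave 1 to 3, 0 to 3, 0 to 9, 8 to 12 and 0 to 3.

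Of the single probe sets, none that passed changed sign under an alternative. In TG against NTG under tamoxifen, several passed under every alternative in which they were tested. Notch3 did so by both probe sets, from -2.15 to -1.46 for the brighter and from -3.35 to -1.90 for the dimmer. So did Smtn (from -2.24 to -1.69), both probe sets of Pdgfrb, Tagln and Rgs5 1420942_s_at (from 1.57 to 2.05). Mcam passed under 18 of 27 alternatives there, Cspg4 1423341_at under 19 of 25 and Rgs5 1417466_at under 24 of 28. Under vehicle, median centring in place of quantile normalization moved the median of all probe sets from -0.01 to -0.12 and the split of all calls from 720 higher and 658 lower to 447 and 1205. Within TG the same change moved the split from 1923 and 2208 to 2562 and 1657, within NTG from 156 and 720 to 98 and 1416, under tamoxifen from 4148 and 4290 to 4851 and 3365, and for the difference from 1378 and 1018 to 2404 and 468. Except where the number of probe sets or arrays fell, the cause of these changes was not tested. Dim probe sets, with a wide spread between arrays, limit what Cspg4, Mcam, Cnn1 and the dimmer probe set of Notch3 can show.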
